A study of Mus musculus with 19 samples.

Results

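Bone marrow monocytes sorted by their chemokine receptor reporters were compared at rest and under systemic inflammation, and the genes described are those whose response to inflammation differed between the CCR1/2 and the CCR2 population. A gene was taken when the interaction of population and state had an adjusted p below 0.05 in a single edgeR quasi-likelihood fit of 15 libraries, with Benjamini-Hochberg adjustment over all genes tested. Of 18559 genes tested, 68 (0.366%) met this rule. Genes of chromosome 14 and some of chromosomes 15 to 19 were not analysed here and are not among the genes tested. The fit used 15 of the 19 libraries of the series that could be assigned to a group.

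The study asked whether monocytes that express CCR1 together with CCR2 are the same cells as those that express CCR2 alone. Both populations came from female REP mice aged 8 to 12 weeks, which carry fluorescent reporter alleles for chemokine receptors, CCR1, CCR2 and CCR3 among them. CCR1/2 monocytes were sorted as positive for the CCR1 and the CCR2 reporter and CCR2 monocytes as positive for the CCR2 reporter only. The methods name CD11b+, high Ly6C, Ly6G- and SiglecF- gates for other sorts of these monocytes, and the surface gates for the bulk libraries are not given in the sources used here. Inflamed mice had received a subcutaneous osmotic pump that released IL-3, IL-6, GM-CSF and IFN-α, and resting mice had not been given these cytokines. The sources do not say for these libraries whether resting mice carried a pump with vehicle. There were 4 resting CCR1/2 libraries, 4 resting CCR2 libraries, 3 inflamed CCR1/2 libraries (replicates 2 to 4, with the column headed as replicate 1 of this group not used here) and 4 inflamed CCR2 libraries. The labels number the libraries within each group but do not say that each came from a separate animal, so every p value measures spread between samples.

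Classical monocytes leave the bone marrow through CCR2, the receptor for CCL2 and CCL7, and become macrophages and dendritic cells in tissues. CCR1 is a receptor for CCL3 and CCL5 that is shared by monocytes and neutrophils. Type I interferon acts on most cells and induces a broad antiviral program, while IL-3, IL-6 and GM-CSF act on myeloid precursors and mature myeloid cells.

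The deposited values were read counts per gene. Reads on genes ranged from 23846583 to 30502009 (median 25484911.5) in resting CCR1/2 libraries and from 23274596 to 25261675 (median 24742642.5) in resting CCR2 libraries. The range was 22268658 to 24444993 (median 22494598) in inflamed CCR1/2 and 22502998 to 24293969 (median 23034492.5) in inflamed CCR2 libraries. Levels are given as CPM, the normalized read count relative to the library size after TMM scaling over the 15 libraries. A response is the log2 ratio of inflamed to resting in a population, and the interaction is the CCR1/2 response minus the CCR2 response. The same number is the log2 difference between CCR1/2 and CCR2 in inflamed libraries minus that in resting libraries, and each is given with its standard error (SE). All 8 monocyte markers (Csf1r, Ccr2, Cx3cr1, Ly6c2, Lyz2, Cd68, Fcgr1, Itgam) had a mean above 1 CPM in every group, with Lyz2 the most abundant. Their summed level was 34596 ± 4265 CPM in resting CCR1/2, 43964 ± 1561 CPM in resting CCR2, 40456 ± 2357 CPM in inflamed CCR1/2 and 42214.5 ± 4625 CPM in inflamed CCR2 (SD, n = 4, 4, 3 and 4).

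Most of the 68 genes parted the populations at rest and parted them less under inflammation. The interaction was above 0 for 43 genes (0.232% of genes tested), with values from 0.69 to 1.91 and a median of 0.92. It was below 0 for 25 genes (0.135%), with values of -0.80 or lower and a median of -1.39, against a median of -0.10 over all genes tested. Of all genes tested, 42.6% had an interaction above 0 and 2432 (13.1%) had an unadjusted p below 0.05, and these shares are the reference for the gene lists below. An interaction of at least 1 in absolute log2 value was reached by 17 of the genes above 0 (0.0916%) and by 20 of those below 0 (0.108%). Of the 68 genes, 63 were protein coding and 66 had a mean of at least 5 CPM in at least 1 group.

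In resting libraries 41 of the 43 genes with an interaction above 0 were lower in CCR1/2 than in CCR2, the exceptions being Pglyrp1 and A530064D06Rik. All 25 genes with an interaction below 0 were higher in resting CCR1/2. The absolute difference between populations was smaller in inflamed than in resting libraries for 55 of the 68 genes, beside 10463 (56.4%) of all genes tested. Its median was 0.86 at rest and 0.28 under inflammation for the 68 genes, beside 0.35 and 0.28 over all genes tested. The difference changed sign for 49 of the 68, but many inflamed differences were near 0, where the sign says little. The share of sign changes over all genes tested was not counted. Only 3 of the 68 had a difference with an edgeR adjusted p below 0.05 in both states. Of these, mt-Tp changed sign (1.12 at rest and -1.26 under inflammation), while Irf4 and Pglyrp1 did not. By edgeR the difference at rest had an adjusted p below 0.05 for 59 of the 68 genes (12.0% of all genes tested, 2220) and the inflamed difference for 9 (0.560%, 104). These differences come from the fit that chose the genes, so the counts describe the interaction and lend it no support. In the sorted bulk libraries fewer cells of a type and less RNA per cell cannot be told apart.

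**Figure D1:**
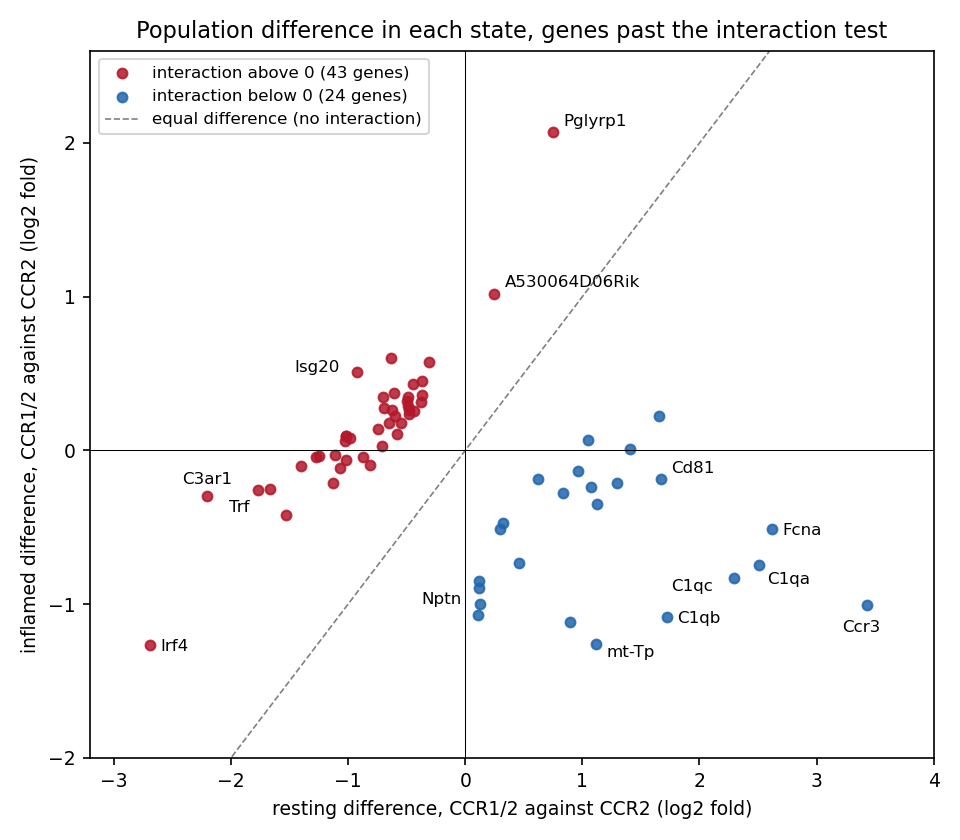
Log2 difference between CCR1/2 and CCR2 at rest (horizontal) and under inflammation (vertical) for 67 of the 68 genes, each point a gene, with Gm43658 left out because it was near 0 reads. The dashed line marks equal differences, and the genes above 0 in interaction (red) lie above it while those below 0 (blue) lie under it, most with a smaller difference under inflammation than at rest.

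The responses themselves took several forms. Over all genes tested, 9020 (48.6%) had a CCR1/2 response with an adjusted p below 0.05 by edgeR, and 9107 (49.1%) a CCR2 response. Both responses passed at that threshold for 40 of the 68 genes. Of these 40, 11 rose in both populations, 21 fell in both and 8 moved in opposite directions. By sign alone, 23 of the 68 rose in both, 22 fell in both and 23 moved in opposite directions. The shares of all genes tested with these joint patterns were not counted. The CCR1/2 response alone passed for 15 genes and the CCR2 response alone for 13. Among the 8 with opposite responses, Rnd3, Yipf6, Cybb and Trf rose in CCR1/2 and fell in CCR2, and Fcna, C1qa and C1qb fell in CCR1/2 and rose in CCR2. The last of the 8, Gm43658, had at most 3 reads in every library of 3 groups and 0 in resting CCR2, so no fold is given for it.

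How many genes passed the test depended on single libraries. The analysis was repeated under 28 alternative settings, 15 of which left out a library. The 68 genes kept the sign of their interaction wherever they were tested, but they were chosen by that value in the same libraries, so the agreement in sign lends it no support. Without inflamed CCR1/2 replicate 3 no gene passed the edgeR test (0 above and 0 below 0, 1846 genes at an unadjusted p below 0.05, smallest adjusted p 0.0864), so each call below by that test depends on that library. Without it the interaction was -3.18 for Fcna, 1.25 for Ms4a4a, 0.73 for Rnd3 and 1.23 for Irf4, beside -3.13, 1.23, 0.74 and 1.42 with it. The other models were not run without that library. Few passed without resting CCR1/2 replicate 2 (1 above and 4 below 0), inflamed CCR2 replicate 1 (2 and 4), inflamed CCR2 replicate 2 (3 and 6) or resting CCR2 replicate 3 (4 and 5). The counts were 19 and 6 without resting CCR2 replicate 4, 29 and 9 without resting CCR1/2 replicate 3, 29 and 16 without resting CCR1/2 replicate 4, 33 and 14 without resting CCR2 replicate 1, and 35 and 49 without inflamed CCR1/2 replicate 4. The 43 and 25 genes of the full fit became 49 and 24 without resting CCR1/2 replicate 1. They became 44 and 28 without inflamed CCR1/2 replicate 2, and 34 and 20 without inflamed CCR2 replicate 3. Counts were larger without resting CCR2 replicate 2 (129 and 81) and without inflamed CCR2 replicate 4 (168 and 83). With replicates 2 to 4 of every group, a choice made after seeing the data, 4 genes were above and 5 below 0, and 8 of the 68 still passed.

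Several other models found more genes, and edgeR without the robust step found fewer (29 above and 18 below 0). Deviations from the group means across 9101 genes correlated between same-numbered CCR1/2 and CCR2 resting libraries (r of 0.568, 0.464, 0.399 and 0.313) but not in every inflamed pair (0.357, 0.479 and -0.272). These correlations are across genes, which are not independent replicates. With replicate number as a block in the resting libraries, chosen after seeing the data, 156 genes were above and 68 below 0, among them 67 of the 68. DESeq2 called 371 above and 163 below 0 with 66 of the 68 among them, and edgeR with RLE size factors called 85 and 28 with 67 of them. With replicate number as a block in both states, edgeR called 334 and 140 with 67 of them. Each of these models tested 18559 genes, and its totals are the reference for list counts under the same model below.

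**Figure D2:**
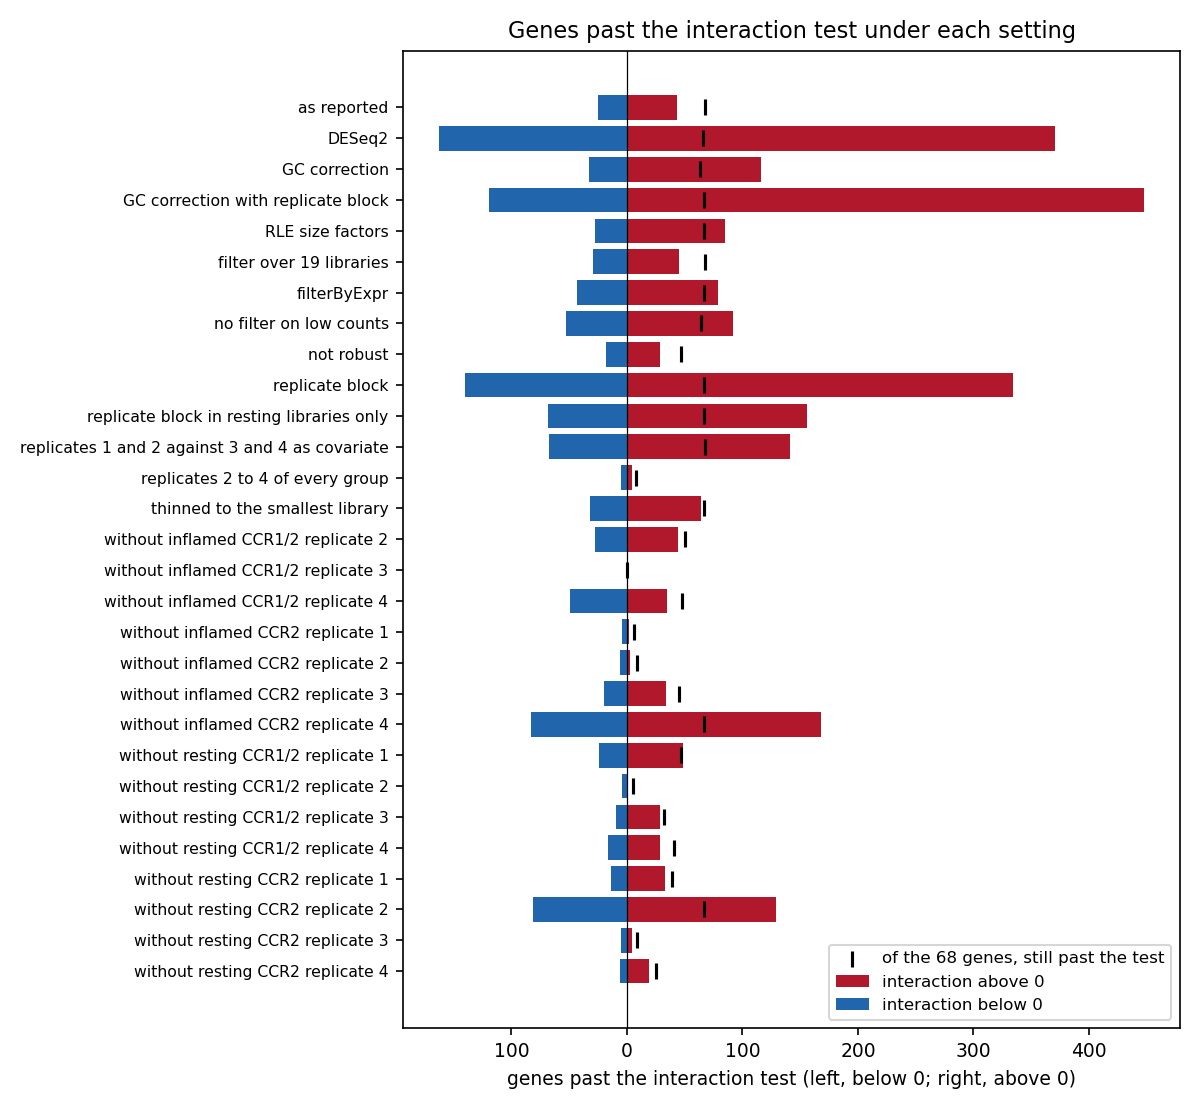
Number of genes past the interaction test under each setting, with those above 0 to the right and those below 0 to the left, and a tick at the number of the 68 genes still past the test. The bars run from 0 genes without inflamed CCR1/2 replicate 3 to 567 genes with a GC correction and replicate block.

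Genes of monocyte identity were among those that rose more in CCR1/2. Ccr2 (ENSMUSG00000049103, chr9:124101950-124113557, GRCm38 here and below), the receptor that defines the sort, had 746, 532, 759 and 698 CPM in resting CCR1/2, 1377, 1004, 1287 and 1348 CPM in resting CCR2, 1286, 1228.5 and 1059.6 CPM in inflamed CCR1/2, and 1230.0, 1307, 1287 and 1084.5 CPM in inflamed CCR2. All 4 resting CCR1/2 libraries lay below the other 11, which overlapped. Ccr2 rose in CCR1/2 (log2 response 0.80 ± 0.13, edgeR adjusted p 3.76e-05), while its CCR2 response of -0.03 ± 0.12 did not pass. Its interaction was 0.83 ± 0.18 (edgeR adjusted p 0.048), near the threshold.

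Cybb (ENSMUSG00000015340, chrX:9435252-9487771), the catalytic subunit of the phagocyte NADPH oxidase, had 2111, 1676, 2211.5 and 2154 CPM in resting CCR1/2, 3397, 2566, 3361 and 3841 CPM in resting CCR2, 2581.5, 3142 and 2863 CPM in inflamed CCR1/2, and 2160.2, 2078, 2630.1 and 2575 CPM in inflamed CCR2. Resting CCR2 libraries were all above resting CCR1/2 libraries, and in inflamed libraries the ranges of the populations overlapped. Cybb rose in CCR1/2 (0.49 ± 0.13) and fell in CCR2 (-0.48 ± 0.12), with an interaction of 0.97 ± 0.18 (edgeR adjusted p 0.0275). Ms4a4a (ENSMUSG00000101389, chr19:11375523-11392790), a membrane protein of the MS4A family found on monocytes and macrophages, had 117, 75.6, 96.5 and 84.8 CPM in resting CCR1/2, 256, 188, 217 and 242 CPM in resting CCR2, 300.3, 268 and 252 CPM in inflamed CCR1/2, and 253, 324, 247 and 299.8 CPM in inflamed CCR2. Only the 4 resting CCR1/2 libraries stood apart, all below the others. Its CCR1/2 response was 1.55 ± 0.14 and its CCR2 response 0.32 ± 0.13, with an interaction of 1.23 ± 0.19 (edgeR adjusted p 0.0176).

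Across 20 monocyte core genes, 18 had an interaction above 0 and 2 below, with a median of 0.44 beside -0.10 over all genes tested. Cybb and Ccr2 passed the test, 5 passed with the resting replicate block, 10 with replicate number as a block in both states and 9 by DESeq2. The list's median difference between populations was -0.60 at rest and -0.06 under inflammation. Ctss, a lysosomal protease, and Fcgr1, the high-affinity IgG receptor, had interactions of 0.72 ± 0.18 and 0.99 ± 0.25 and did not pass (edgeR adjusted p 0.0725 and 0.0776). Csf1r, the receptor for M-CSF, was at 0.46 ± 0.18 (adjusted p 0.277) by the same edgeR test. Ccr1, the other receptor of the sort, had 121 ± 18.8 CPM in resting CCR1/2, 77.3 ± 5.93 CPM in resting CCR2, 297 ± 94.7 CPM in inflamed CCR1/2 and 205 ± 51.4 CPM in inflamed CCR2 (SD). Its interaction of -0.10 ± 0.26 did not pass (edgeR adjusted p 0.911).

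**Figure D3:**
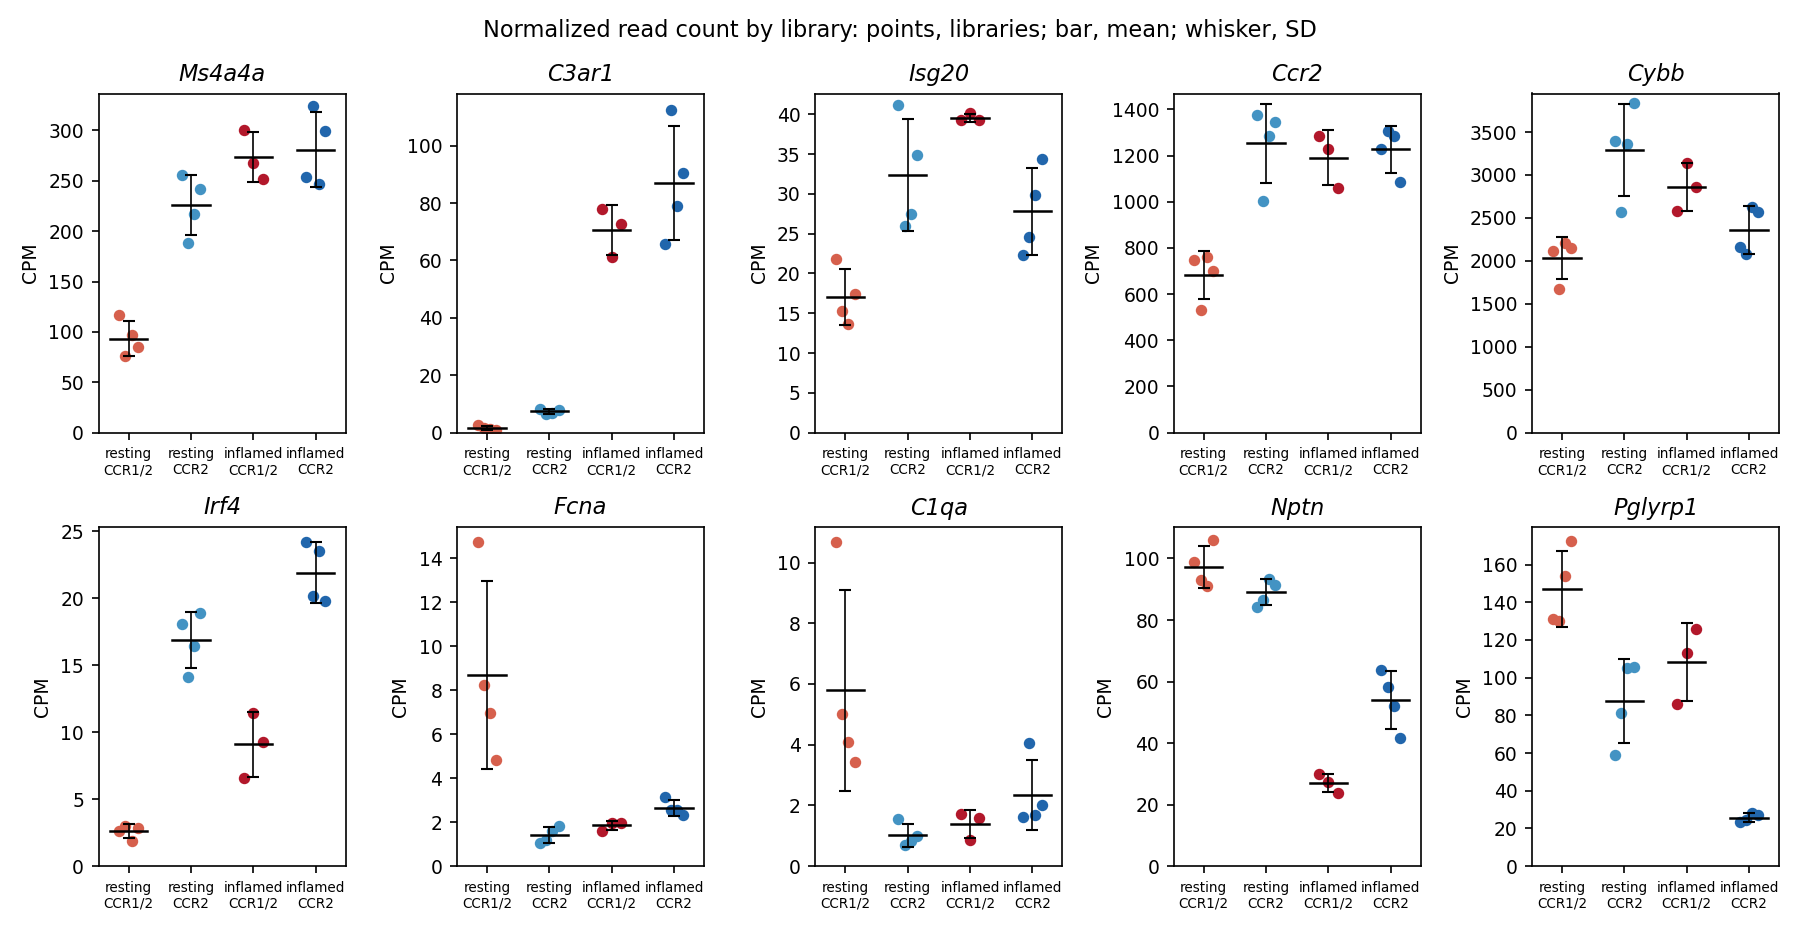
Normalized read count (CPM, from 0) of 10 genes in each library, as points with the group mean (bar) and SD (whisker), for resting CCR1/2 (n = 4), resting CCR2 (n = 4), inflamed CCR1/2 (n = 3) and inflamed CCR2 (n = 4). As a ratio, Ms4a4a, C3ar1 and Ccr2 differ between the populations mainly at rest and Nptn mainly under inflammation, and Fcna and C1qa are highest in resting CCR1/2 libraries.

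A complement receptor was lower in resting CCR1/2 and rose further there. C3ar1 (ENSMUSG00000040552, chr6:122847138-122856161), the receptor for the anaphylatoxin C3a, had 2.76, 1.54, 1.07 and 0.975 CPM in resting CCR1/2, 8.31, 6.34, 6.95 and 7.79 CPM in resting CCR2, 78.1, 61.2 and 72.8 CPM in inflamed CCR1/2, and 65.7, 113, 78.9 and 90.6 CPM in inflamed CCR2. Every inflamed library lay above every resting one, resting CCR1/2 lay below resting CCR2, and the inflamed populations overlapped. It rose in CCR1/2 (5.47 ± 0.27) and in CCR2 (3.57 ± 0.23), and its interaction of 1.91 ± 0.33 (edgeR adjusted p 0.0275) was the highest of the 43 genes above 0.

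The components that start the classical and lectin pathways went the other way. Fcna (ENSMUSG00000026938, chr2:25624666-25628030), the lectin ficolin A, had 14.7, 8.23, 6.98 and 4.84 CPM in resting CCR1/2, 1.05, 1.21, 1.59 and 1.80 CPM in resting CCR2, 1.61, 1.98 and 1.96 CPM in inflamed CCR1/2, and 3.16, 2.53, 2.54 and 2.30 CPM in inflamed CCR2. Resting CCR1/2 libraries were all above the other 11, with replicate 1 the highest. Fcna fell in CCR1/2 (-2.23 ± 0.33) and rose in CCR2 (0.90 ± 0.30), with an interaction of -3.13 ± 0.44 (edgeR adjusted p 0.0173). C1qa, C1qb and C1qc encode the 3 chains of C1q and lie side by side on chromosome 4. C1qa (ENSMUSG00000036887, chr4:136895917-136898803) had 10.7, 5.004, 4.09 and 3.41 CPM in resting CCR1/2, 1.55, 0.679, 0.834 and 1.01 CPM in resting CCR2, 1.70, 0.867 and 1.58 CPM in inflamed CCR1/2, and 1.60, 4.04, 1.68 and 1.997 CPM in inflamed CCR2. The resting CCR1/2 libraries were highest, and inflamed CCR2 replicate 2 reached into their range. C1qb (ENSMUSG00000036905, chr4:136880129-136886187) had 23.2, 11.2, 9.71 and 8.36 CPM in resting CCR1/2, 7.05, 2.11, 2.90 and 3.85 CPM in resting CCR2, 9.44, 4.10 and 4.90 CPM in inflamed CCR1/2, and 11.8, 14.9, 14.9 and 10.6 CPM in inflamed CCR2, where resting CCR1/2 overlapped both inflamed groups. C1qc (ENSMUSG00000036896, chr4:136889804-136893065) had 21.4, 9.84, 9.54 and 5.75 CPM in resting CCR1/2, 4.32, 1.70, 1.35 and 2.14 CPM in resting CCR2, 1.10, 1.25 and 3.03 CPM in inflamed CCR1/2, and 3.12, 3.29, 3.83 and 2.65 CPM in inflamed CCR2, with resting CCR1/2 above all others. The interactions were -3.25 ± 0.60, -2.81 ± 0.56 and -3.12 ± 0.62 (edgeR adjusted p 0.0275, 0.0444 and 0.0444). Without resting CCR1/2 replicate 1 they were -2.78, -2.38 and -2.65, and that of Fcna was -2.75. Of 15 Fc receptor and complement genes, 10 were above and 5 below 0 (median 0.28), with 2 above and 3 below (the C1q genes) past the test.

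C1q and ficolin A are products of tissue macrophages, and other macrophage genes are given beside them. All 8 macrophage markers (Vcam1, Adgre1, Cd163, Mrc1, C1qa, C1qb, C1qc, Spic) had reads in every group, none was at 0, and Adgre1 was the most abundant. The sum of the 8 was 329, 242, 297 and 249 CPM in resting CCR1/2, 370.2, 286, 388 and 393 CPM in resting CCR2, 608, 603 and 581 CPM in inflamed CCR1/2, and 505, 652, 673 and 595 CPM in inflamed CCR2. That sum was highest in inflamed libraries of both populations, where Adgre1 carried most of it. Without Adgre1, the sum of the other 7 was 80.8 ± 40.5 CPM in resting CCR1/2 and 36.5 ± 12.1 CPM in resting CCR2 (SD). It was 33.7 ± 10.5 CPM in inflamed CCR1/2 and 78.1 ± 19.1 CPM in inflamed CCR2, and resting CCR1/2 replicate 1 was the highest library at 139.55 CPM. The interaction of Adgre1 was above 0 at 0.80 ± 0.17, just outside the threshold (edgeR adjusted p 0.05003). Vcam1, an adhesion molecule of marrow macrophages, had 28.7 ± 16.9 CPM in resting CCR1/2, 1.73 ± 1.12 CPM in resting CCR2, 2.07 ± 1.45 CPM in inflamed CCR1/2 and 1.10 ± 0.412 CPM in inflamed CCR2 (SD) and an interaction of -3.15 ± 0.81 that did not pass (edgeR adjusted p 0.107). Slc40a1, the iron exporter ferroportin, was at -2.60 ± 0.82 and did not pass either (edgeR adjusted p 0.184). Mrc1, the mannose receptor, rose in CCR1/2 (0.82) and in CCR2 (1.44), with an interaction of -0.62 ± 0.43 that did not pass (edgeR adjusted p 0.582). Above 0 and not past the test were also Siglec1, a lectin of tissue macrophages, at 0.46 ± 0.53 and Hmox1, which breaks down heme, at 0.40 ± 0.15 (edgeR adjusted p 0.765 and 0.264). Of 20 tissue macrophage genes, 6 were above and 14 below 0 with a median of -2.20 (-2.61 to -1.56 with a library left out). The summed level of the 20, with Apoe the most abundant, was 994.9, 800.5, 1205 and 938 CPM in resting CCR1/2, 1806, 1569, 2500.5 and 2577 CPM in resting CCR2, 785, 789 and 779 CPM in inflamed CCR1/2, and 736, 916, 984 and 883 CPM in inflamed CCR2. Resting CCR2 libraries were above all others in that sum, most of which was Apoe at rest. Apoe had 590.5 ± 150 CPM in resting CCR1/2, 1602 ± 451 CPM in resting CCR2, 4.57 ± 1.12 CPM in inflamed CCR1/2 and 10.5 ± 3.36 CPM in inflamed CCR2 (SD). The median population difference of the 20 genes was 0.68 at rest, higher in CCR1/2, and -0.79 under inflammation. The part of other cells in these values was not tested.

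Trf (ENSMUSG00000032554, chr9:103204001-103230444), which encodes the iron carrier transferrin, was the 1 tissue macrophage gene past the test above 0. It had 7.44, 5.28, 6.48 and 5.33 CPM in resting CCR1/2, 20.4, 14.9, 22.9 and 25.4 CPM in resting CCR2, 12.9, 12.96 and 11.6 CPM in inflamed CCR1/2, and 9.65, 16.2, 18.2 and 15.5 CPM in inflamed CCR2. Resting CCR1/2 libraries were all below the others, and resting CCR2 overlapped inflamed CCR2. Trf rose in CCR1/2 (1.03 ± 0.21) and fell in CCR2 (-0.49 ± 0.19), with an interaction of 1.51 ± 0.28 (edgeR adjusted p 0.0275). Of its exonic bases, 63.5% overlap Gm20425, and the strand of counting was not stated. Whether reads on the shared bases entered the Trf count is therefore not known.

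Interferon-response genes had a lower median in resting CCR1/2 than in resting CCR2, and a median difference near 0 under inflammation. Isg20 (ENSMUSG00000039236, chr7:78913424-78920396), an interferon-induced exonuclease that degrades viral RNA, had 21.8, 15.3, 13.6 and 17.4 CPM in resting CCR1/2, 41.2, 25.99, 27.5 and 34.9 CPM in resting CCR2, 39.3, 40.1 and 39.3 CPM in inflamed CCR1/2, and 22.3, 24.6, 29.9 and 34.4 CPM in inflamed CCR2. Inflamed CCR1/2 libraries were all above inflamed CCR2 libraries, and resting CCR1/2 were below all others. Isg20 rose in CCR1/2 (1.22 ± 0.18), its CCR2 response was -0.22 ± 0.17, and the interaction was 1.44 ± 0.25 (edgeR adjusted p 0.0275). It was the 1 antiviral response gene of 42 past the test. All 42 had an interaction above 0, also with RLE size factors and with a GC correction, with a median of 0.79 (0.64 to 0.98 with a library left out) beside -0.10 over all genes tested. The median difference between populations was -0.81 at rest and -0.05 under inflammation, and the median response was 1.22 in CCR1/2 and 0.39 in CCR2. With the resting replicate block 15 of the 42 passed above 0, with replicate number as a block in both states 24, and by DESeq2 12. Of all 18559 genes tested, 156, 334 and 371 passed above 0 in these models. Samd9l, Slfn1 and Xaf1, interferon-induced growth or cell death regulators, were next by p at 0.92 ± 0.21, 0.99 ± 0.24 and 0.95 ± 0.24 and did not pass (edgeR adjusted p 0.0601, 0.0732 and 0.0838).

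Of 32 IFN-γ response genes, 27 were above and 5 below 0 with a median of 0.60 (0.05 to 0.85 with a library left out). By edgeR 0 of the 32 passed, 5 had an unadjusted p below 0.05, all above 0, beside 13.1% of all genes tested, and 1 passed by DESeq2. With replicate number as a block in both states 9 passed above 0, beside 334 of all 18559 genes tested. MHC class II genes, which IFN-γ induces in myeloid cells, were split 7 above and 5 below 0 (median 0.17). H2-Ab1, a class II chain, was at -0.19 ± 1.02 (edgeR adjusted p 0.972).

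Promoters of the 68 genes were searched on both strands for 4 short motifs known from the promoters of interferon-response and cell division genes. The motifs were the ISRE core (GAAANNGAA), the interferon-stimulated response element, the GAS element (TTCNNNGAA), the cell cycle element CHR (TTTGAA) and the CCAAT box (CCAAT). RefSeq promoters of GRCm38.p6, from 250 bases before to 50 after each start, were found for 34 of the 43 genes above 0 and 15 of the 25 below 0. The ISRE core was present for 4 of the 34 (11.8%: A530064D06Rik, Ccr2, Cybb and Gm5150) and 0 of the 15, beside 9.76% of 27025 genes. GAS was present for 3 of the 34 (8.82%: Isg20, Pla2g7 and Ptpre) and 1 of the 15 (6.67%, Mtfr2), beside 9.55%. CHR was present for 7 of the 34 (20.6%) and 0 of the 15, beside 20.2%. CCAAT was present for 14 of the 34 (41.2%) and 5 of the 15 (33.3%), beside 41.1%. A set of 3 promoters is shown because the genes are described above and carry an interferon motif: Cybb (chrX:9469275-9469574, minus strand), Ccr2 (chr9:124101933-124102232, plus strand) and the first of the Isg20 starts (chr7:78913174-78913473, plus strand). Each reads 5′ to 3′ on the strand of its gene, with motifs in capitals. Cybb holds ISRE cores, a CHR and a CCAAT box, Ccr2 a single ISRE core and CHR elements, and Isg20 a GAS element. A match describes the letters and not a bound site.
Cybb: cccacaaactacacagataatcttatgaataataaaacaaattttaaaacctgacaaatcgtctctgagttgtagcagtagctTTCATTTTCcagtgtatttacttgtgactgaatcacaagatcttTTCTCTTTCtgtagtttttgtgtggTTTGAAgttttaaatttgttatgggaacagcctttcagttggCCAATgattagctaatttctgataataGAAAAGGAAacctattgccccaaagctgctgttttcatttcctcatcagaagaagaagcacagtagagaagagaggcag
Ccr2: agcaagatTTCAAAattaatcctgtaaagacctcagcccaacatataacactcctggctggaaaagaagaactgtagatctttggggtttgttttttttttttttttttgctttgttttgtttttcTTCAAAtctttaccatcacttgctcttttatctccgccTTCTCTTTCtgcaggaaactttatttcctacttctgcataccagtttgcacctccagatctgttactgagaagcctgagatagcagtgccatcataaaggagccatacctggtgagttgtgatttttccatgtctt
Isg20: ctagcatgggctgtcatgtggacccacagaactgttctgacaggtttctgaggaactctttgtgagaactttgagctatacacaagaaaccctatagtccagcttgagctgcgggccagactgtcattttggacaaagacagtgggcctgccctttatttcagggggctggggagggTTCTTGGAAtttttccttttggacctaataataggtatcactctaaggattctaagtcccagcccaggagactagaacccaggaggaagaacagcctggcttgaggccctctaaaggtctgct

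Pla2g7 (ENSMUSG00000023913, chr17:43568098-43612201), the enzyme that inactivates platelet-activating factor, had 101, 85.3, 92.7 and 91.6 CPM in resting CCR1/2, 156, 136, 132 and 180.4 CPM in resting CCR2, 278, 275 and 298 CPM in inflamed CCR1/2, and 166, 224, 264 and 239 CPM in inflamed CCR2. Resting CCR1/2 libraries were the lowest, inflamed CCR1/2 the highest, and the CCR2 groups overlapped between them. It rose in CCR1/2 (1.62 ± 0.14) and in CCR2 (0.56 ± 0.13) with an interaction of 1.05 ± 0.19 (edgeR adjusted p 0.0275), and 10.98% of its exonic bases overlap 1700071M16Rik. Among other receptors of innate immunity, chosen after their values were seen, Tlr7, the endosomal sensor of single-stranded RNA, had an interaction of 0.92 ± 0.19. The neighbouring C-type lectin genes Clec4a1 and Clec4a3 were at 0.96 ± 0.19 and 0.95 ± 0.18 (edgeR adjusted p 0.048, 0.0385 and 0.0313). In each of the 3 the CCR1/2 response passed and the CCR2 response did not.

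Irf4 (ENSMUSG00000021356, chr13:30749226-30766976), a transcription factor of dendritic cells and lymphocytes, had 2.65, 3.02, 1.86 and 2.86 CPM in resting CCR1/2, 18.1, 14.1, 16.4 and 18.9 CPM in resting CCR2, 6.58, 11.4 and 9.29 CPM in inflamed CCR1/2, and 24.2, 20.1, 23.5 and 19.7 CPM in inflamed CCR2. Its 4 groups did not overlap, and CCR2 lay above CCR1/2 in both states. Irf4 rose in CCR1/2 (1.80 ± 0.20) and had a CCR2 response of 0.38 ± 0.17, so that its population difference went from -2.69 ± 0.19 to -1.27 ± 0.19. The interaction was 1.42 ± 0.26 (edgeR adjusted p 0.0275). It was the 1 gene past the test among 20 myeloid transcription factors (13 above and 7 below 0, median 0.14, 0.08 to 0.19 with a library left out) and among 16 dendritic cell genes (13 above and 3 below 0, median 0.78). All 8 dendritic cell markers had reads and Cd209a was the most abundant. Their sum was 40.5, 23.4, 18.5 and 23.7 CPM in resting CCR1/2, 187, 108, 122 and 153 CPM in resting CCR2, 5.80, 6.26 and 7.54 CPM in inflamed CCR1/2, and 8.26, 13.99, 20.2 and 14.6 CPM in inflamed CCR2. Resting CCR2 was the highest group, and inflamed CCR2 replicate 3 reached into the range of resting CCR1/2, above the other inflamed libraries. Whether these cells had a part in the Irf4 values was not tested.

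Tgfbr2 (ENSMUSG00000032440, chr9:116084293-116175360), a receptor subunit for TGF-β, had 13.8, 7.64, 13.9 and 12.8 CPM in resting CCR1/2, 40.3, 27.4, 44.8 and 40.4 CPM in resting CCR2, 14.8, 17.9 and 15.9 CPM in inflamed CCR1/2, and 19.1, 14.9, 21.1 and 22.1 CPM in inflamed CCR2. Resting CCR2 libraries lay above all others, and resting CCR1/2 below. It fell in CCR2 (-0.98 ± 0.19), its CCR1/2 response was 0.43 ± 0.20, and the interaction was 1.41 ± 0.27 (edgeR adjusted p 0.0325).

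Several genes fell in both populations, and fell further in CCR2, from a higher resting level. Btg1 (ENSMUSG00000036478, chr10:96617006-96622809), an antiproliferative factor of resting lymphoid and myeloid cells, had 200.01, 187, 198 and 209 CPM in resting CCR1/2, 354, 334, 426 and 499.9 CPM in resting CCR2, 71.3, 78.1 and 63.6 CPM in inflamed CCR1/2, and 59.02, 58.6, 67.2 and 80.8 CPM in inflamed CCR2. Resting CCR2 was the highest group, and the inflamed populations overlapped below both resting groups. It fell in both, with responses of -1.49 ± 0.14 in CCR1/2 and -2.60 ± 0.13 in CCR2 and an interaction of 1.12 ± 0.19 (edgeR adjusted p 0.0233). Eif3b (ENSMUSG00000056076, chr5:140419328-140443360), a translation initiation subunit, had an interaction of 1.30 ± 0.23 and responses of -1.05 ± 0.17 and -2.35 ± 0.16. Cd47 (ENSMUSG00000055447, chr16:49800533-49915010), the surface signal that restrains phagocytosis, was at 0.82 ± 0.17, with responses of -2.04 ± 0.13 and -2.86 ± 0.12. Ubl3, a membrane-anchored ubiquitin-like protein, was at 0.82 ± 0.15, and Ppp3ca, the catalytic subunit of calcineurin, whose resting difference did not pass, at 0.88 ± 0.16. Their edgeR adjusted p values were 0.0275, 0.0444, 0.0275 and 0.0275. Rnd3 (ENSMUSG00000017144, chr2:51130438-51149111), a regulator of the actin cytoskeleton, rose in CCR1/2 (0.40 ± 0.09) and fell in CCR2 (-0.34 ± 0.08), with an interaction of 0.74 ± 0.12 (edgeR adjusted p 0.0176). Rbsn, an endosomal trafficking protein, rose in both and was at 0.69 ± 0.12 (edgeR adjusted p 0.0275).

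Secreted defence and chemokine genes held a pair of members above 0. Pglyrp1 (ENSMUSG00000030413, chr7:18871331-18890459), a peptidoglycan-binding protein of granulocyte granules, had 131, 130.3, 154 and 172 CPM in resting CCR1/2, 58.8, 81.1, 105 and 105 CPM in resting CCR2, 85.8, 113 and 126 CPM in inflamed CCR1/2, and 23.4, 24.2, 28.2 and 27.3 CPM in inflamed CCR2. Inflamed CCR2 libraries lay far below all others, and inflamed CCR1/2 overlapped resting CCR2. Unlike most of the 43, it was higher in CCR1/2 at rest (0.75 ± 0.16) and the difference was larger under inflammation (2.07 ± 0.18). Its interaction was 1.32 ± 0.24 (edgeR adjusted p 0.0275), and it was the 1 of 13 secreted defence genes past the test (8 above and 5 below 0, median 0.23). A530064D06Rik, a protein-coding gene, was at 0.77 ± 0.14 (edgeR adjusted p 0.0275), and its resting difference of 0.25 ± 0.09 did not pass.

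Ccl6 (ENSMUSG00000018927, chr11:83587882-83593087), a CC chemokine of mouse myeloid cells, had 1374, 978, 1467 and 1398 CPM in resting CCR1/2, 1931, 1612.5, 2044 and 2362 CPM in resting CCR2, 1427, 1625 and 1510.2 CPM in inflamed CCR1/2, and 1107, 1171, 1309 and 1104 CPM in inflamed CCR2. Resting CCR2 libraries lay above resting CCR1/2, and inflamed CCR1/2 above inflamed CCR2. It fell in CCR2 (-0.76 ± 0.13), its CCR1/2 response was 0.22 ± 0.13, and the interaction was 0.98 ± 0.18 (edgeR adjusted p 0.0275). It was the 1 of 17 chemokine ligand genes past the test (10 above and 7 below 0, median 0.18).

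Among 14 chemokine receptor genes (7 above and 7 below 0, median 0.06), Ccr2 passed above 0 and Ccr3 below. Ccr3 (ENSMUSG00000035448, chr9:124021972-124031689), the eotaxin receptor of eosinophils, had 4.21, 1.82, 1.53 and 0.91 CPM in resting CCR1/2, 0.378, 0.189, 0.159 and 0.0419 CPM in resting CCR2, 0.23, 0.0964 and 0.213 CPM in inflamed CCR1/2, and 0.173, 0.311, 0.383 and 0.608 CPM in inflamed CCR2. The 4 resting CCR1/2 libraries were above the other 11, at low levels, and replicate 1 was the highest. Ccr3 fell in CCR1/2 (-3.51 ± 0.66), its CCR2 response was 0.93 ± 0.62, and the interaction was -4.44 ± 0.90 (edgeR adjusted p 0.0444). DESeq2 did not call it. All 4 eosinophil markers (Epx, Prg2, Prg3, Siglecf) had reads, Siglecf the most, and their sum was 1.63, 3.67, 1.94 and 3.90 CPM in resting CCR1/2, 0.798, 1.51, 1.47 and 0.796 CPM in resting CCR2, 2.81, 1.93 and 2.39 CPM in inflamed CCR1/2, and 2.34, 3.38, 1.91 and 1.74 CPM in inflamed CCR2. Resting CCR1/2 overlapped both inflamed groups in that sum. Of 5 eosinophil genes, 1 was above and 4 below 0, among them Epx, which had 0 CPM in 3 groups. Their median was -1.83 and ran from -4.13 to -0.74 with a library left out.

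Some genes had no resting difference past the test and parted the populations under inflammation. Nptn (ENSMUSG00000032336, chr9:58582240-58657955), the immunoglobulin-superfamily glycoprotein neuroplastin, had 98.7, 93.05, 90.98 and 106 CPM in resting CCR1/2, 84.4, 86.7, 93.5 and 91.5 CPM in resting CCR2, 29.9, 27.3 and 23.8 CPM in inflamed CCR1/2, and 63.6, 58.3, 51.9 and 41.7 CPM in inflamed CCR2. The resting populations overlapped, and inflamed CCR1/2 lay below inflamed CCR2. It fell in both, with responses of -1.85 ± 0.13 in CCR1/2 and -0.72 ± 0.12 in CCR2 and an interaction of -1.13 ± 0.17 (edgeR adjusted p 0.0173). Apba1 (ENSMUSG00000024897, chr19:23758887-23949596), an adaptor that binds the amyloid precursor protein, had 47.4, 48.97, 47.9 and 49.1 CPM in resting CCR1/2, 49.6, 50.9, 39.7 and 39.1 CPM in resting CCR2, 16.2, 16.3 and 14.96 CPM in inflamed CCR1/2, and 34.9, 25.1, 31.5 and 41.5 CPM in inflamed CCR2. Inflamed CCR1/2 libraries were all below the rest, and inflamed CCR2 reached into the resting CCR2 range. Its interaction was -1.18 ± 0.20 (edgeR adjusted p 0.0233). Gcn1l1 (ENSMUSG00000041638, chr5:115565254-115622654), a ribosome-binding activator of the amino acid starvation kinase, had 12.7, 15.3, 14.7 and 11.6 CPM in resting CCR1/2, 14.2, 13.4, 11.7 and 10.6 CPM in resting CCR2, 35.4, 38.8 and 30.3 CPM in inflamed CCR1/2, and 58.4, 60.6, 73.5 and 67.02 CPM in inflamed CCR2. The resting populations overlapped, and inflamed CCR2 lay above inflamed CCR1/2. It rose by 1.36 ± 0.14 in CCR1/2 and 2.38 ± 0.13 in CCR2, with an interaction of -1.02 ± 0.19 (edgeR adjusted p 0.0275).

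With Ppp3ca, A530064D06Rik and Cox5a, these made up the 6 genes whose population difference passed under inflammation only. Cox5a, a respiratory chain subunit chosen after its values were seen, had 131 ± 9.31 CPM in resting CCR1/2, 121 ± 5.48 CPM in resting CCR2, 3.03 ± 0.847 CPM in inflamed CCR1/2 and 5.49 ± 0.926 CPM in inflamed CCR2 (SD) and an interaction of -0.97 ± 0.21 (edgeR adjusted p 0.048).

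Cd81 (ENSMUSG00000037706, chr7:143052739-143067934), a tetraspanin of the plasma membrane, had 28.01, 27.4, 18.6 and 18.1 CPM in resting CCR1/2, 8.52, 6.90, 6.95 and 6.54 CPM in resting CCR2, 16.8, 13.7 and 18.5 CPM in inflamed CCR1/2, and 25.5, 17.9, 13.9 and 17.1 CPM in inflamed CCR2. Resting CCR2 libraries were all below the other 11, which overlapped. Cd81 rose in CCR2 (1.37 ± 0.20), its CCR1/2 response was -0.49 ± 0.20, and the interaction was -1.86 ± 0.28 (edgeR adjusted p 0.0173). Cd81 and Fcna each passed in 27 of 28 alternatives, the most among the 45 genes of the naming rule given here. The fewest among those past the test were 13 for Gm26917, and 15 each for Ccr2, Ccr3 and Cd47.

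Genes of cell division had a higher median in resting CCR1/2 than in resting CCR2, and a smaller median difference under inflammation. Mtfr2 (ENSMUSG00000019992, chr10:20347770-20361304), a mitochondrial fission regulator expressed in dividing cells, had 16.6, 16.4, 14.9 and 12.4 CPM in resting CCR1/2, 4.83, 7.09, 5.40 and 5.49 CPM in resting CCR2, 24.4, 19.6 and 16.9 CPM in inflamed CCR1/2, and 24.9, 20.3, 14.9 and 20.6 CPM in inflamed CCR2. Resting CCR2 libraries were the lowest group and the inflamed populations overlapped. Mtfr2 rose in CCR2 (1.82 ± 0.18), its CCR1/2 response was 0.43 ± 0.18, and the interaction was -1.39 ± 0.25 (edgeR adjusted p 0.0275). Rttn, a centriole assembly protein, was at -1.47 ± 0.24, and Stk26, a kinase of the germinal centre kinase family, at -1.10 ± 0.22 (edgeR adjusted p 0.0176 and 0.0444). Cntrob, another centriole protein, and Atad5, which unloads the replication clamp, were chosen after their values were seen and were at -1.51 ± 0.32 and -0.98 ± 0.20 (edgeR adjusted p 0.048 and 0.045).

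Of 52 G2/M phase genes, 1 was above and 51 below 0 with a median of -0.54, and of 42 S phase genes 2 were above and 40 below with a median of -0.43 (-0.58 to -0.26 with a library left out). The edgeR test passed 0 of either list, although 39 and 19 had an unadjusted p below 0.05, all below 0, beside 13.1% of all genes tested, and DESeq2 passed 7 and 2 below 0. The median difference between populations was 0.91 at rest and 0.33 under inflammation for G2/M genes, and 0.79 and 0.31 for S phase genes. Bub1, a mitotic checkpoint kinase, had 110.4 ± 5.37 CPM in resting CCR1/2, 48.2 ± 6.47 CPM in resting CCR2, 143 ± 23.3 CPM in inflamed CCR1/2 and 109 ± 20.6 CPM in inflamed CCR2 (SD). Its interaction of -0.81 ± 0.19 did not pass (edgeR adjusted p 0.0718). Of 14 stem and progenitor genes, 4 were above and 10 below 0 (median -0.26, -0.48 to -0.01 with a library left out).

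Mitochondrial RNAs stood among the genes below 0. The tRNA gene mt-Tp (ENSMUSG00000064372, chrM:15356-15422) had 6.13, 5.48, 7.14 and 7.998 CPM in resting CCR1/2, 2.81, 2.90, 2.86 and 3.73 CPM in resting CCR2, 1.79, 1.83 and 1.19 CPM in inflamed CCR1/2, and 3.59, 4.62, 2.39 and 4.77 CPM in inflamed CCR2. Resting CCR1/2 was the highest group, inflamed CCR1/2 the lowest, and the CCR2 groups overlapped between them. It fell in CCR1/2 (-2.06 ± 0.27), its CCR2 response was 0.32 ± 0.23, and the interaction was -2.38 ± 0.36 (edgeR adjusted p 0.0173). The ribosomal RNA gene mt-Rnr2 was at -1.19 ± 0.25 (edgeR adjusted p 0.0496) as the last gene inside the threshold. Of 11 mitochondrially encoded mRNAs, 1 was above and 10 below 0 (median -0.59). By edgeR 0 passed, with 5 below 0 at an unadjusted p below 0.05, beside 13.1% of all genes tested. Below 0, 1 passed by DESeq2, 1 with the resting replicate block and 7 with replicate number as a block in both states. Of all 18559 genes tested, 163, 68 and 140 passed below 0 in these models. Their sum, in which mt-Cytb was the most abundant, was 6446, 7509.6, 4709.7 and 5533 CPM in resting CCR1/2, 4111, 4627, 2943 and 2885.5 CPM in resting CCR2, 3712, 2191 and 2384 CPM in inflamed CCR1/2, and 2642, 3561, 1957 and 2769.5 CPM in inflamed CCR2. Resting CCR1/2 libraries were above all others, which overlapped. Gm26917 (ENSMUSG00000097971, chr17:39843013-39846341), which the annotation lists as a long noncoding RNA, was at -2.01 ± 0.41 (edgeR adjusted p 0.048). It did not pass with the resting replicate block (edgeR adjusted p 0.0833). Whether RNA quality had a part in these values was not tested.

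The granule and neutrophil genes that mark CCR1/2 monocytes in the study were mostly below 0 and rarely passed. Gm17494 (ENSMUSG00000057359, chr3:122255958-122293720), a processed transcript, had 21.3, 20.3, 21.6 and 20.7 CPM in resting CCR1/2, 6.09, 7.77, 6.75 and 5.95 CPM in resting CCR2, 2.35, 1.25 and 1.70 CPM in inflamed CCR1/2, and 1.86, 1.55, 1.34 and 1.30 CPM in inflamed CCR2. It fell in CCR1/2 (-3.56 ± 0.22) and in CCR2 (-2.13 ± 0.19), and the inflamed populations overlapped, with an interaction of -1.43 ± 0.28 (edgeR adjusted p 0.0325). It was the 1 gene past the test among 58 of the study's list of neutrophil genes, of which 9 were above and 49 below 0 (median -0.88). At an unadjusted p below 0.05 by edgeR were 1 of the 58 above and 18 below 0, beside 13.1% of all genes tested. DESeq2 passed 7 of them below 0 and 0 above. The study chose that list on the same resting libraries, which enter the interaction, so its direction is not independent evidence. The list's median population difference was 2.32 at rest and 1.28 under inflammation. All 10 neutrophil markers had reads and Mmp8 was the most abundant, and their sum was 2705, 2965, 2674 and 3298 CPM in resting CCR1/2, 624, 794, 924 and 909.8 CPM in resting CCR2, 3027, 2437 and 2541.5 CPM in inflamed CCR1/2, and 1557, 1482, 1229 and 1285 CPM in inflamed CCR2. CCR1/2 lay above CCR2 in both states.

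Of 9 early granule genes, 1 was above and 8 below 0 (median -0.93), and of 22 mature neutrophil genes 13 were above and 9 below 0 (median 0.58, 0.16 to 0.76 with a library left out). By edgeR 0 of either list passed. At an unadjusted p below 0.05 were 3 early granule genes, all below 0, and 9 mature neutrophil genes above and 5 below 0, beside 13.1% of all genes tested. DESeq2 passed 2 early granule genes below 0, and 5 mature neutrophil genes above and 3 below 0. With the resting replicate block 2 early granule genes passed below 0 and 2 mature neutrophil genes above 0. With replicate number as a block in both states, 3 early granule genes passed below 0, and 6 mature neutrophil genes above and 1 below 0. Elane and Mpo, enzymes of primary granules, were at -1.05 ± 0.56 and -0.59 ± 0.70. S100a8 and S100a9, the subunits of calprotectin, were at -1.53 ± 0.55 and -1.23 ± 0.40. Lcn2, an iron-sequestering granule protein, was at -0.60 ± 0.53 and Cxcr2, the neutrophil chemokine receptor, at 0.62 ± 0.83. Slpi, a protease inhibitor, was at 0.23 ± 0.25 and Ncam1, an adhesion molecule, at 0.30 ± 0.26. None of these 8 genes passed the edgeR test (adjusted p 0.458, 0.773, 0.255, 0.199, 0.682, 0.798, 0.743 and 0.665).

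The remaining lists held 1 gene past the test. Cd47 was the 1 of 29 adhesion molecules past the test (22 above and 7 below 0, median 0.22, 0.14 to 0.31 with a library left out). Of 28 cytokine signalling genes 22 were above 0 (median 0.27), of 22 inflammatory mediators 13 (median 0.20) and of 15 lipid handling genes 10 (median 0.63), beside 42.6% of all genes tested. Of 15 immediate early genes 7 were above 0 (median -0.12, and 0.02 with a GC correction), and of 15 endoplasmic reticulum chaperones 7 (median -0.00, and above 0 with RLE size factors or a GC correction). Of 78 cytosolic ribosomal proteins 7 were above 0 (median -0.23). Markers of other lineages had medians of 0.63 (12 B cell genes), 0.52 (12 T and NK cell genes), 0.55 (12 erythroid genes), -0.18 (7 basophil and mast cell genes) and -0.85 (5 megakaryocyte genes). All 7 T and NK cell markers (Cd3e, Cd3d, Cd3g, Thy1, Nkg7, Klrb1c, Gzma) had reads, Nkg7 the most, and their sum was 59.7, 91.7, 33.2 and 34.2 CPM in resting CCR1/2, 11.6, 17.5, 9.33 and 10.1 CPM in resting CCR2, 8.61, 7.66 and 8.69 CPM in inflamed CCR1/2, and 7.10, 6.53, 8.81 and 8.16 CPM in inflamed CCR2. Resting CCR1/2 libraries were above all others in that sum, as they were for Fcna, C1qc and Ccr3. Of the 7 markers, 1 had a mean above 1 CPM in resting CCR1/2, 2 in resting CCR2 and 3 in each inflamed group. The median population difference of the 12 T and NK cell genes was -1.36 at rest, lower in CCR1/2, and -0.996 under inflammation. The part of these cells in the values was not tested. In these lists other than adhesion molecules, and in the MHC class II and stem and progenitor lists, the edgeR test passed no gene. At an unadjusted p below 0.05 stood 8 cytokine signalling, 2 mediator, 5 lipid, 6 immediate early, 4 chaperone, 10 ribosomal, 1 T and NK cell, 1 megakaryocyte and 2 stem and progenitor genes and 0 of the others, beside 13.1% of all genes tested. DESeq2 passed 3, 0, 1, 2, 1, 2, 1, 0 and 1 of these. With a library left out, the medians of the erythroid, MHC class II, secreted defence, chemokine ligand, T and NK cell, immediate early, chaperone, chemokine receptor, mediator, and basophil and mast cell lists lay on both sides of 0. Those of the B cell (0.10 to 0.92), lipid handling (0.26 to 0.63), megakaryocyte (-1.22 to -0.31) and ribosomal protein lists (-0.37 to -0.12) kept their side and changed in size. With replicate number as a block in both states, where 474 of all genes tested passed, lists not given with that block above held at most 8 genes past the test (Fc receptors and complement, 5 above and 3 below 0).

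**Figure D4:**
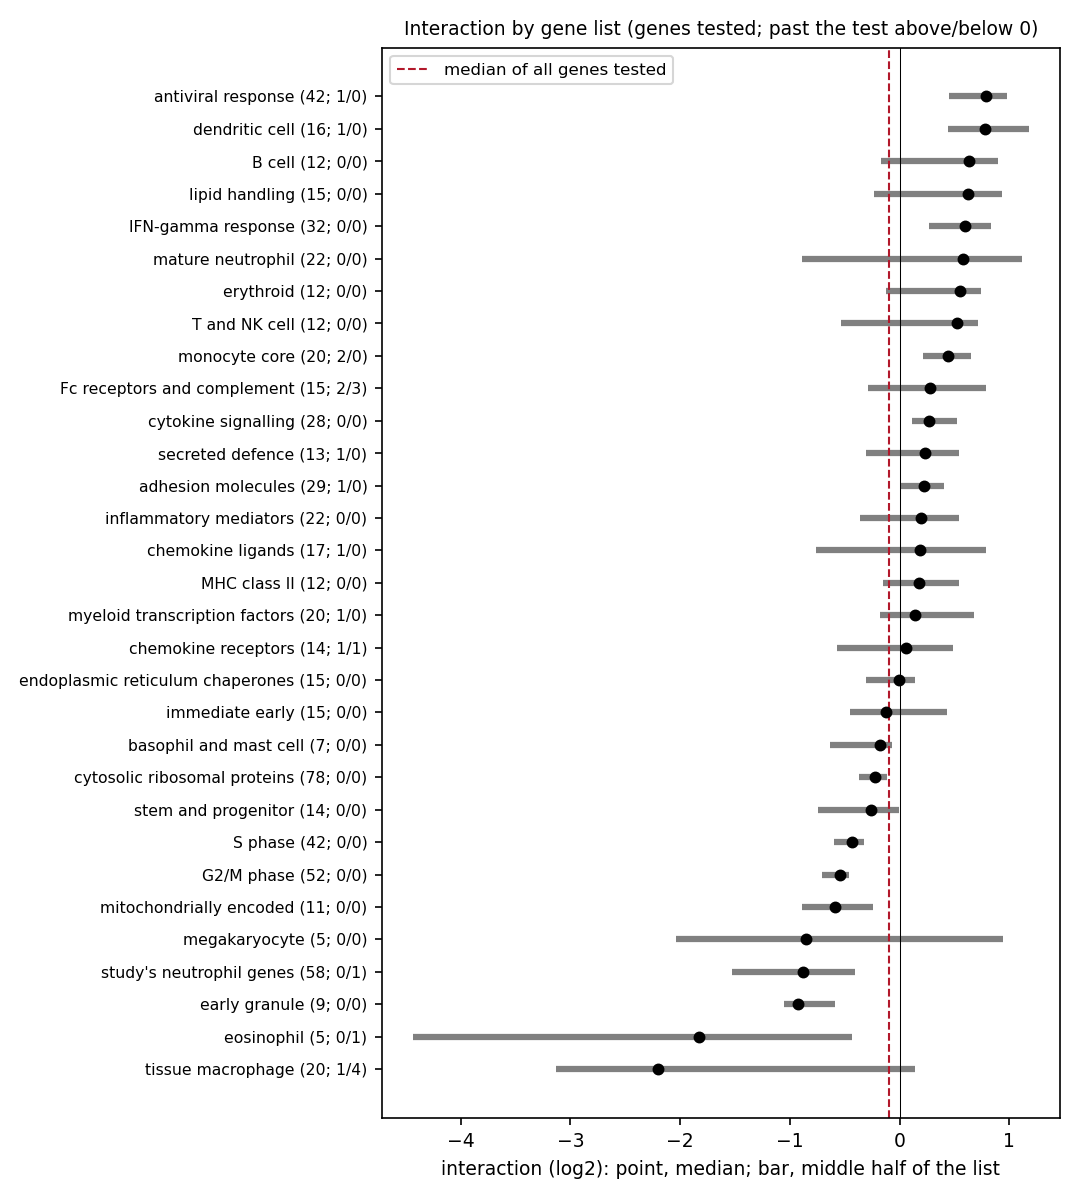
Median interaction (point) and interquartile range (bar) on the log2 scale for each of 31 gene lists, with the number tested and the number past the test above and below 0 in brackets. The dashed line is the median of all genes tested, -0.10, and the lists run from antiviral response (0.79) to tissue macrophage (-2.20).

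At the threshold, Edem1 (0.69 ± 0.15) and Ccr2 had an edgeR adjusted p of 0.0480 and mt-Rnr2 of 0.0496, while Plaur (0.73), Pgp (-0.93) and Tspoap1 (-2.05) lay just outside at 0.05003. The members with no value given above, Gm43658 apart, lay between -1.31 (Phf19) and 1.23 (Reep3).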

How the data were processed

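Sorted monocyte RNA was sequenced as bulk libraries, and the authors deposited a table of raw read counts for 50854 genes, made with fastp and STAR 2.7.10a on GRCm38 (Ensembl 91), without molecular identifiers. Of its 20 columns, 1, headed as inflamed CCR1/2 replicate 1, matched no sample and was not used. Genes of chromosome 14 and some of chromosomes 15 to 19 were not analysed here. Genes averaging 1 read or more per library were fitted in R 4.3.3 with edgeR 4.0.16 (limma 3.58.1): TMM, a mean for each of the 4 groups, robust quasi-likelihood F tests, two-sided, Benjamini-Hochberg, threshold 0.05. SE is the absolute log2 value over the root of F. Tool use was tested on simulated data. Pairing by replicate number was checked by correlating deviations from group means over genes with a mean of at least 100 reads, pairs counting when all exceeded 0.1. Resting pairs met this and inflamed pairs did not.

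The members and lists were chosen with earlier results of these data known. Genes named by rule were, in each direction, the 12 with the smallest p at a mean of at least 5 CPM in a group, the 6 with the largest interaction, every member in a list other than the study's neutrophil genes, and genes the sort or the study names (45 given here, of which 34 passed). S and G2/M lists came from Seurat 5.3.0. Alternatives were DESeq2 1.42.0, RLE size factors, a GC correction, other filters, no robust step, thinned counts, replicate blocks and each library left out. A resting-only block, a covariate for replicates and replicates 2 to 4 of every group were chosen after seeing the data. Counts of reads are not independent molecules, and at 22268658 to 30502009 reads a library the precision at low CPM is limited by counting error. Some results are not reported here.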

Additional observations from a re-analysis of the deposited data

Results flagged for a closer look

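The response to inflammation differed between the populations by the edgeR quasi-likelihood interaction test for 34 genes named by the rule and given here. All values are CCR1/2 response minus CCR2 response on the log2 scale. Those above 0 were Ms4a4a 1.23, Rnd3 0.74, Btg1 1.12, Isg20 1.44, C3ar1 1.91, Eif3b 1.30, Pla2g7 1.05, A530064D06Rik 0.77, Ubl3 0.82, Ppp3ca 0.88, Rbsn 0.69, Pglyrp1 1.32, Irf4 1.42, Cybb 0.97, Ccl6 0.98, Trf 1.51, Tgfbr2 1.41, Cd47 0.82 and Ccr2 0.83. Those below 0 were Fcna -3.13, mt-Tp -2.38, Cd81 -1.86, Nptn -1.13, Rttn -1.47, Apba1 -1.18, Mtfr2 -1.39, Gcn1l1 -1.02, C1qa -3.25, Gm17494 -1.43, C1qc -3.12, Stk26 -1.10, Ccr3 -4.44, C1qb -2.81 and Gm26917 -2.01.

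Single libraries stood far from the others of their group for 4 of 135 groups examined, where chance gives about 1 in 20, or 6.75. They were mt-Tp in resting CCR2 replicate 4 (3.73 CPM), C1qa in inflamed CCR2 replicate 2 (4.04 CPM), Tgfbr2 in resting CCR1/2 replicate 2 (7.64 CPM) and S100a8 in resting CCR2 replicate 2 (256 CPM).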

How the results depend on the processing

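All 68 genes kept their direction under all 28 alternatives in which they were tested (67 under filterByExpr), which lends the calls no support because the genes were chosen by that value in the same libraries. Of the named genes past the test, 724 values under an alternative stayed past it and 228 did not, and of those not past it, 296 stayed outside, 3 passed (Csf1r 2, S100a9 1) and 9 changed sign. The cause was not tested for any change below.

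Genes above and below 0 numbered 43 and 25, with 17 and 20 at an absolute log2 value of at least 1. They were 371 and 163 (82 and 70) by DESeq2, 85 and 28 (34 and 23) with RLE size factors, 116 and 33 (42 and 24) with a GC correction, and 448 and 119 (76 and 53) with GC correction and replicate block. They were 334 and 140 (56 and 68) with the replicate block, 92 and 53 (27 and 32) with no filter, 79 and 43 (26 and 29) with filterByExpr, 45 and 29 (17 and 23) with the filter over 19 libraries, 64 and 32 (22 and 23) with thinned counts, and 29 and 18 (14 and 17) without the robust step. Of those chosen after seeing the data, the resting-only block gave 156 and 68 (39 and 49), the covariate for replicates 1 and 2 against 3 and 4 gave 141 and 67 (32 and 42), and replicates 2 to 4 of every group gave 4 and 5 (4 and 5). With a library left out the ranges were 0 to 168 above and 0 to 83 below 0, and 0 to 49 and 0 to 56 at the larger effect. The median over all genes moved by 0.102 without resting CCR2 replicate 4.

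Of genes not past the test, Ccr1 ran from -0.375 to 0.0892 with a library left out (the highest without inflamed CCR1/2 replicate 3, 0.07 without inflamed CCR2 replicate 2) and was 0.0191 with GC correction and replicate block. Cxcr2 ran from -0.0647 (without inflamed CCR1/2 replicate 2) to 1.03. H2-Ab1 ran from -0.76 to 0.49 (0.49 without inflamed CCR2 replicate 3, 0.42 without resting CCR1/2 replicate 1, 0.01 and 0.04 without resting CCR2 replicates 2 and 3, 0.24 without inflamed CCR1/2 replicate 2). Read depth limits genes near the floor of 3 reads. Each group had 3 or 4 libraries, and whether that number limited the calls was not tested.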
